A study of Mus musculus with 12 samples.

Results

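A set of 7 cytokine genes was followed in CD4+ T cells of the mouse lung after bacterial pneumonia: Tnf, Lta, Ltb, Il2, Csf1, Csf2 and Lif. They were chosen by name and not by a threshold on any value, but with earlier results of these data known, and are 7 of the 19434 genes in the deposited count table. All 7 had enough counts to be tested, among 11062 genes that did. Csf2 reached that level through its libraries from infected mice, since none of its PBS libraries had more than 3 counts.

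Lung CD4+ T cells of male and female C57BL/6NJ mice were enriched with magnetic beads and sorted 48 h after the mice had aspirated either 2800000 colony-forming units of E. coli (Escherichia coli) or only PBS, phosphate-buffered saline. The 4 groups were juveniles given E. coli on day 15 of life, juveniles given PBS on day 15, neonates given E. coli on day 5 and neonates given PBS on day 5. Each group held 3 libraries, and by the design text each library pooled the cells of 2 juvenile or 3 neonatal mice, so n = 3 counts pools. The mice were of a single strain with no allele or treatment beyond these given by the labels, the sexes were pooled without a record of their shares, and no other surface marker of the sort is named by the labels. Levels are in CPM, counts scaled by the size of the library, as mean ± SD over the 3 libraries of a group. Each log2 fold change carries its SE from edgeR. A gene is called where its p, adjusted over the 11062 tested genes, is under 0.05.

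Each library held 6035445 to 8129983 counts, so that 3 counts, the most that a count of 0 allows, stand for 0.374 to 0.494 CPM. Summed T cell markers were 3880 to 4190 CPM after E. coli and 4770 to 5070 CPM after PBS in juveniles, and 4060 to 4380 and 4030 to 4580 CPM in neonates. The juvenile sums did not overlap, and the neonatal sums did. Of the 8 T cell markers, 5 were called lower after E. coli in juveniles, against 9.42% of all tested genes. In neonates 0 were called. A pair of PBS libraries stood apart: juvenile PBS 2 and neonatal PBS 1 had summed markers of immature T cells of 294 and 444 CPM, against 11.9 to 206 CPM in the other 10. Markers of monocytes and macrophages were present in every library. They summed to 759 to 1060 CPM in juvenile E. coli and 309 to 456 CPM in juvenile PBS libraries, which did not overlap. In neonatal E. coli and neonatal PBS libraries they summed to 306 to 522 and 243 to 404 CPM, which overlapped. Ccr2 alone averaged 404 ± 34.1 CPM of the mean sum of 879 CPM in juvenile E. coli libraries. In juvenile PBS libraries it averaged 127 ± 6.36 CPM of 376 CPM. In neonatal E. coli and neonatal PBS libraries it averaged 93.0 ± 34.7 of 409 CPM and 85.1 ± 20.3 of 307 CPM. Which cells made it was not tested. In these bulk samples a change in the number of cells that make a transcript and a change in the amount per cell cannot be told apart.

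Activated T cells release these cytokines to instruct other cells. TNF and the lymphotoxins are ligands of the TNF superfamily: TNF inflames endothelium and arms phagocytes, and lymphotoxin alpha and beta form a membrane complex that maintains lymphoid tissue. IL-2 is the growth factor of activated T cells and sustains regulatory T cells. M-CSF (Csf1) and GM-CSF (Csf2) maintain and activate macrophages, GM-CSF being required for the maturation of alveolar macrophages, and LIF signals through STAT3 and is known to protect the lung epithelium in bacterial pneumonia in mice. Some cytokine mRNAs are known for short lives, set in part by AU-rich elements in the 3′ untranslated region (UTR). Proteins such as tristetraprolin bind such elements and bring on decay.

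The pentamer at the core of an AU-rich element is printed in capitals in the windows that follow, each the 30 bases of the longest annotated 3′ UTR that hold the most of it. They are shown because the element is known to set the life of some cytokine mRNAs and its density differed widely among the 7 genes. All are written as DNA in the sense of the mRNA, from GENCODE M21 on GRCm38.
Csf2, chr11:54247325-54247354, minus strand: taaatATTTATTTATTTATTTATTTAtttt
Il2, chr3:37121039-37121068, minus strand: tATTTATTTAaatATTTAactttaATTTAt
Tnf, chr17:35199678-35199707, minus strand: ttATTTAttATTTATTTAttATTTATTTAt
Lta, chr17:35203408-35203437, minus strand: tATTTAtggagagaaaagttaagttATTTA
Lif, chr11:4272414-4272443, plus strand: ATTTAttcaatgtcatATTTAaaatATTTA
Csf1, chr3:107741103-107741132, minus strand: taaggtcATTTAaatatctATTTAaaaaat

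Csf2 held 9 pentamers in a 3′ UTR of 317 bases, or 28.4 per kb, a density that 0.0865% of 17343 genes reached. Il2 held 7 in 581 bases (12 per kb, reached by 0.68% of genes) and Tnf 8 in 764 bases (10.5 per kb, reached by 1.01%). In these 3 genes neighbouring pentamers overlap or follow each other closely. Lta held 3 in 572 bases, a density of 5.24 per kb that 6.45% of genes reached. Lif held 7, but spread over 3180 bases (2.2 per kb, reached by 32.9% of genes). Csf1 held 4 in 2111 bases (1.89 per kb, reached by 38.4%), and its shortest annotated 3′ UTR, of 145 bases, held 0. Ltb held 0 in 174 bases, as did 32.6% of all genes in theirs, and the median over all genes was 1.31 per kb. Which UTR was in use was not measured, and a match of letters is a description of the sequence only.

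**Figure D1:**
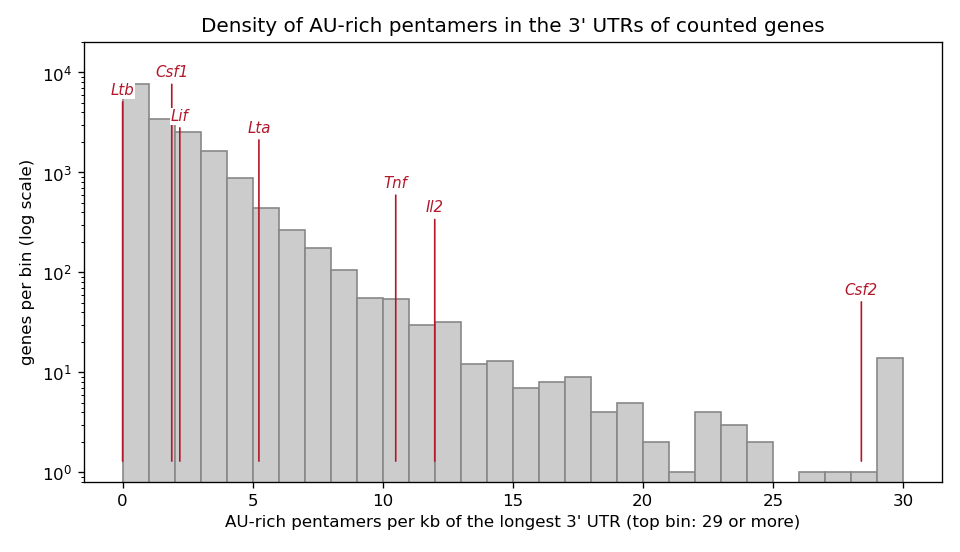
Histogram of the number of AU-rich pentamers per kb of each gene's longest 3′ UTR, over 17343 genes, with the number of genes per bin on a log scale and the 7 cytokine genes marked by lines. Csf2 lies at 28.4 per kb, Il2 at 12 and Tnf at 10.5, and Csf1, Lif and Ltb lie at or below 2.2, near the median of 1.31.

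The genes lie on 3 chromosomes. Ltb (ENSMUSG00000024399, 17:35194439-35196320, plus strand), Tnf (ENSMUSG00000024401, 17:35199381-35202007, minus strand) and Lta (ENSMUSG00000024402, 17:35203165-35205351, minus strand) are neighbours on chromosome 17, Tnf ending 3061 bases from Ltb and starting 1158 bases from Lta. Csf2 (ENSMUSG00000018916, 11:54247271-54249667, minus strand) and Lif (ENSMUSG00000034394, 11:4257557-4272514, plus strand) are far apart on chromosome 11, and Il2 (ENSMUSG00000027720, 3:37120523-37125959, minus strand) and Csf1 (ENSMUSG00000014599, 3:107741048-107760469, minus strand) on chromosome 3.

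Per kb of exon, the measure by which genes can be set beside each other, the order of the 7 genes differed between the groups. In juvenile E. coli libraries Tnf (7.8 ± 1.5 CPM per kb) and Lta (7.1 ± 1.22) stood first, followed by Ltb (5.82 ± 1.18), Csf2 (3.87 ± 0.784), Lif (2.99 ± 0.464), Csf1 (2.0 ± 0.355) and Il2 (1.67 ± 0.589). Ranges of 1 SD overlapped between neighbours in that order, except between Lif and Csf1. In neonatal PBS libraries Lta (9.4 ± 1.87 CPM per kb) and Ltb (8.19 ± 0.847) stood first and overlapped, followed by Tnf (4.75 ± 0.998), Il2 (1.14 ± 0.883), Lif (0.841 ± 0.289), Csf2 (0.37 ± 0.178) and Csf1 (0.336 ± 0.0982). In all 4 groups the TNF superfamily genes, Tnf, Lta and Ltb, had the highest mean levels per kb.

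Lif, Csf2, Csf1 and Tnf rose after E. coli in juveniles, and Lif alone of the 7 was called in neonates. The count in juveniles stands beside 15.4% of all tested genes called higher (24.8% in either direction), and the count in neonates beside 1.05%. No member was called lower, against 9.42% of tested genes in juveniles and 0.145% in neonates. In juveniles the libraries of the same 4 genes lay wholly above those of the PBS group, against 20.6% of all tested genes. In neonates those of Lif and Csf2 did, against 11.2%.

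**Figure D2:**
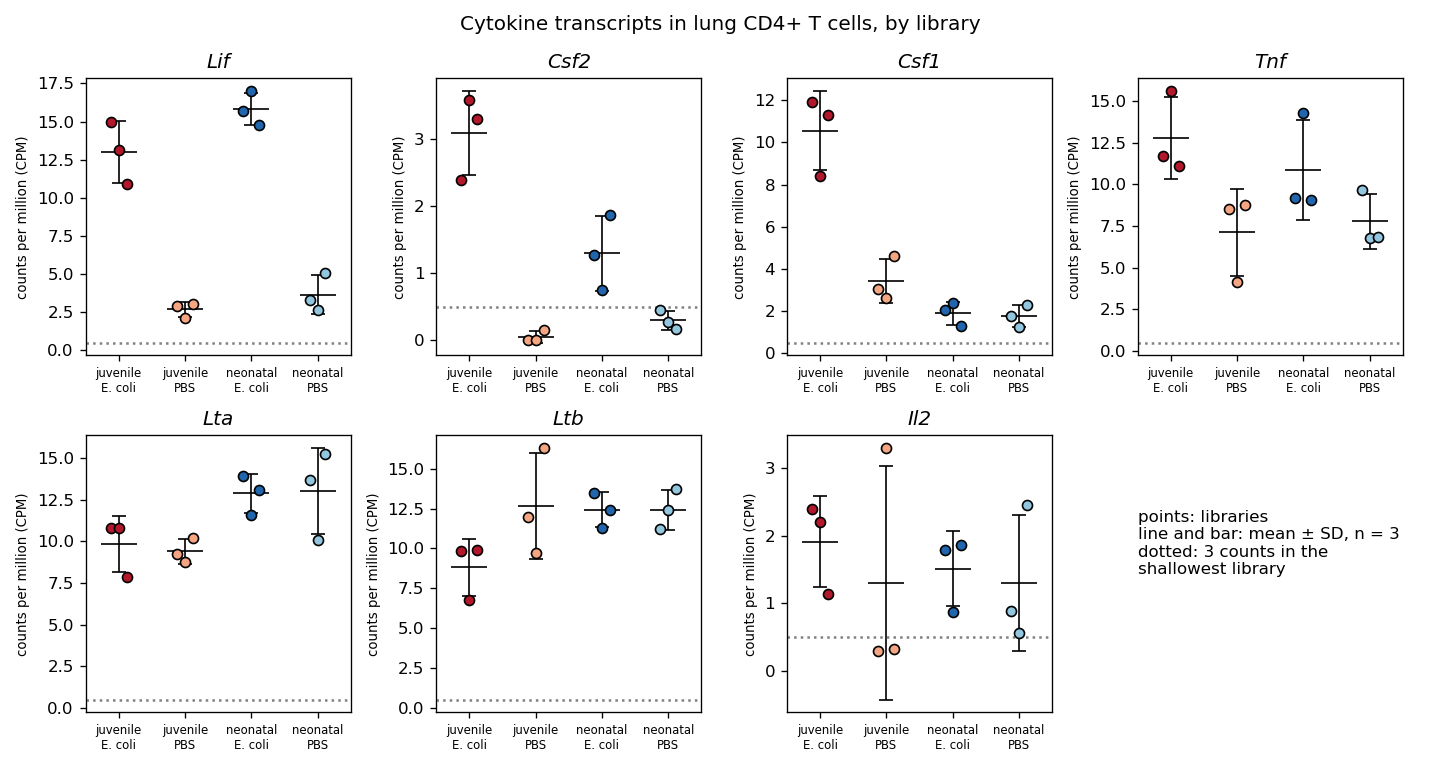
CPM of each of the 7 genes in each library (points), with mean and SD as line and bar (n = 3) and 3 counts of the shallowest library as a dotted line. Lif lies between 10.9 and 17.0 CPM in the 6 E. coli libraries and between 2.14 and 5.06 CPM in the 6 PBS libraries, and all 6 PBS libraries of Csf2 lie under the dotted line.

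Lif had 15.0, 13.1 and 10.9 CPM in the juvenile E. coli libraries, against 2.88, 2.14 and 3.03 CPM in the juvenile PBS libraries. In neonates it had 15.7, 17.0 and 14.8 CPM after E. coli, against 3.27, 2.64 and 5.06 CPM after PBS. Every E. coli library held more than 2 times the Lif of every PBS library of either age. The juvenile means were 13.0 ± 2.02 CPM after E. coli and 2.68 ± 0.475 CPM after PBS, a rise of 2.26 ± 0.245 on the log2 scale (4.81-fold, adjusted p = 1.43e-05, edgeR). The neonatal means were 15.8 ± 1.07 and 3.66 ± 1.26 CPM, a rise of 2.12 ± 0.232 (4.36-fold, adjusted p = 0.000263). LIF is a cytokine of the IL-6 family that signals through the receptor pair LIFR and gp130. Its juvenile response exceeded its neonatal response by 0.14 ± 0.342 (adjusted p = 0.852), and the normal 95% interval of that difference ran over −0.53 to 0.81. Juvenile and neonatal libraries overlapped both after E. coli (−0.28 ± 0.2, adjusted p = 0.365) and after PBS (−0.43 ± 0.281, adjusted p = 0.481). Lif was called at both ages under all 20 alternative settings tried, with a log2 rise of 2.13 to 2.38 in juveniles.

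Csf2 was counted 19, 26 and 26 times in the juvenile E. coli libraries, against 0, 0 and 1 times in the juvenile PBS libraries. In neonates it was counted 10, 6 and 13 times after E. coli, against 3, 2 and 1 times after PBS. Neither age's groups overlapped, and all 6 PBS libraries were at or under 3 counts, the most that a count of 0 allows. GM-CSF is made by activated T cells and acts on myeloid cells. In CPM, the juvenile means were 3.1 ± 0.628 after E. coli and 0.0531 ± 0.092 after PBS. The 71 counts of the juvenile E. coli group against 1 in its PBS group give a ratio of 59.4 per depth, with an exact binomial 95% interval of 10.3 to 2380 that covers counting error only, and the rise was called (adjusted p = 0.000123, edgeR). In neonates 29 counts against 6 give a ratio of 4.25 (interval 1.73 to 12.5) and a fitted log2 change of 2.04 ± 0.635 that was not called (adjusted p = 0.173). The response was not called as different between the ages (adjusted p = 0.103). After E. coli, the juvenile libraries, at 2.39, 3.59 and 3.3 CPM, all lay above the neonatal ones, at 1.28, 0.748 and 1.87 CPM. That difference of 1.26 ± 0.452 had an adjusted p of 0.0694 and was called by limma voom (1.30, adjusted p = 0.0335) and where the groups compared were fitted alone (1.26, adjusted p = 0.0418). Csf2 overlaps an antisense RNA gene on GRCm38, Gm12223, and without strand their reads cannot be told apart.

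Csf1 differed between the ages in the infected lung more than any other of the 7 genes. It had 11.9, 8.42 and 11.3 CPM in the juvenile E. coli libraries, against 3.03, 2.64 and 4.62 CPM in the juvenile PBS libraries. The neonatal libraries had 2.04, 2.37 and 1.3 CPM after E. coli, against 1.78, 1.25 and 2.29 CPM after PBS. The 3 juvenile E. coli libraries thus stood above all other 9, while the neonatal groups overlapped throughout. M-CSF is the growth factor of monocytes and macrophages. In juveniles it rose by 1.62 ± 0.294 on the log2 scale (3.07-fold, adjusted p = 0.000975, edgeR). In neonates the change was 0.13 ± 0.37 (adjusted p = 0.945), with a normal 95% interval of −0.6 to 0.85. The difference of the responses was 1.5 ± 0.477 (interval 0.56 to 2.43, adjusted p = 0.0747). It was not called, except without juvenile PBS 3 (1.77, adjusted p = 0.0466). The ages after E. coli differed by 2.45 ± 0.31 (5.47-fold higher in juveniles, adjusted p = 5.08e-05). After PBS all juvenile libraries also lay above all neonatal ones (0.96 ± 0.352), but the difference was not called (adjusted p = 0.152).

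Tnf had 11.7, 15.6 and 11.1 CPM in the juvenile E. coli libraries, against 8.5, 4.12 and 8.77 CPM in the juvenile PBS libraries. In neonates it had 9.19, 14.3 and 9.07 CPM after E. coli, against 9.67, 6.81 and 6.86 CPM after PBS. The juvenile groups did not overlap, and the neonatal groups did. In juveniles Tnf rose by 0.83 ± 0.276 on the log2 scale (1.78-fold, adjusted p = 0.0381, edgeR). This call was made under 12 of the 20 alternative settings. It was lost without juvenile PBS 2, the library with the lowest Tnf (0.56, adjusted p = 0.104), and without juvenile E. coli 2, the library with the highest (0.67, adjusted p = 0.157). In neonates the change was 0.48 ± 0.275 (adjusted p = 0.543), and the responses differed by 0.35 ± 0.39 (adjusted p = 0.654).

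Macrophages are a major source of TNF, and the summed markers of monocytes and macrophages, Ccr2 among them, are given here beside Tnf for each library. Juvenile E. coli 2 had the highest Tnf of its group and the highest summed monocyte and macrophage markers, 1060 CPM against 759 and 820 CPM in the other two. Neonatal E. coli 2 had the highest Tnf of its group and likewise the highest sum, 522 CPM against 306 and 398 CPM. Neonatal PBS 1 (9.67 CPM of Tnf) had 404 CPM of these markers against 243 and 274 CPM, and juvenile PBS 2, with the lowest Tnf, had 309 CPM against 456 and 365 CPM. The order was not kept throughout. In juvenile PBS the highest Tnf, 8.77 CPM, was in library 3 and the highest sum, 456 CPM, in library 1. In juvenile E. coli library 1 had more Tnf than library 3 (11.7 and 11.1 CPM) with a lower sum (759 and 820 CPM). In neonatal E. coli library 1 had slightly more than library 3 (9.19 and 9.07 CPM), again with a lower sum (306 and 398 CPM). Only in neonatal PBS was the order kept, library 3 having slightly more Tnf than library 2 (6.86 and 6.81 CPM) and a higher sum (274 and 243 CPM). Of the 10 markers of this list, 7 rose and 1 fell after E. coli in juveniles, and 1 rose in neonates. The 3 tested genes whose levels followed Tnf most closely over the 12 libraries were Stab1 (Pearson r = 0.968), Igsf6 (0.947) and Adam9 (0.941). Stab1 encodes a scavenger receptor of macrophages and endothelium. The part that the markers have in the Tnf result was not tested.

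**Figure D3:**
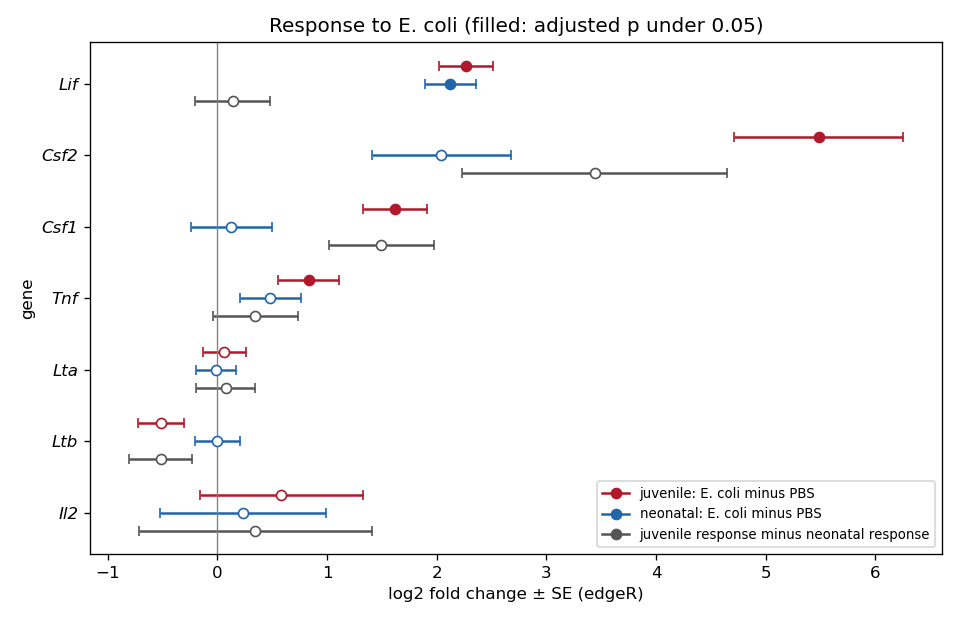
Log2 fold changes ± SE (edgeR) of the 7 genes after E. coli relative to PBS in juveniles (red) and neonates (blue), and the juvenile minus the neonatal response (grey), filled where the adjusted p is under 0.05. Only Lif is filled at both ages, Csf2, Csf1 and Tnf are filled in juveniles, and no difference of responses is filled. The fitted value of Csf2 in juveniles rests on 1 count in the PBS group and is no bound.

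The lymphotoxin genes were not called in any comparison. Lta had 10.8, 10.8 and 7.88 CPM in the juvenile E. coli libraries, against 9.22, 8.73 and 10.2 CPM in the juvenile PBS libraries. In neonates it had 13.9, 11.6 and 13.1 CPM after E. coli, against 13.7, 10.1 and 15.2 CPM after PBS. Infected and PBS libraries overlapped at both ages, and the changes were 0.06 ± 0.194 in juveniles (adjusted p = 0.847, edgeR) and −0.01 ± 0.185 in neonates (adjusted p = 0.992). The normal 95% intervals, −0.32 to 0.44 in juveniles and −0.37 to 0.35 in neonates, hold no change as large as 2-fold. After E. coli every juvenile library lay below every neonatal one (−0.39 ± 0.187), with an adjusted p of 0.17.

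Ltb, whose product anchors the lymphotoxin complex in the membrane, had 9.81, 6.77 and 9.91 CPM in the juvenile E. coli libraries, against 12, 9.72 and 16.3 CPM in the juvenile PBS libraries. In neonates it had 13.5, 11.3 and 12.4 CPM after E. coli, against 11.2, 12.4 and 13.7 CPM after PBS. Both pairs of groups overlapped. The juvenile change was −0.51 ± 0.208 (adjusted p = 0.0841, edgeR) and became a call without juvenile PBS 2 (−0.67, adjusted p = 0.0242), while the neonatal change was 0.0 with a normal 95% interval of −0.39 to 0.4. After E. coli the juvenile libraries lay below all neonatal ones (−0.49 ± 0.206, adjusted p = 0.12).

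Il2 was counted 19, 16 and 9 times in the juvenile E. coli libraries, against 2, 20 and 2 times in the juvenile PBS libraries. In neonates it was counted 14, 7 and 13 times after E. coli, against 6, 4 and 15 times after PBS. A single library, juvenile PBS 2, set the juvenile comparison: it held the most Il2 of all 12, while the other juvenile PBS libraries were under the floor of 3 counts. The juvenile change was 0.58 ± 0.741 (adjusted p = 0.606, edgeR), and 2.59 ± 0.804 (adjusted p = 0.026) without juvenile PBS 2. Juvenile PBS 2 was also the library of its group with 294 CPM of immature T cell markers, against 37.0 and 51.2 CPM, and their part in its Il2 count was not tested. The neonatal change was 0.24 ± 0.757 (adjusted p = 0.949), and neonatal PBS 3, with 15 counts, stood above the 6 and 4 counts of the other two. The normal 95% interval of the juvenile change, −0.87 to 2.04, is wide. The 3′ end of Il2 overlaps Adad1 on the opposite strand, which had at most 2 counts in any library.

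The ages were compared within each exposure as well. After E. coli 1 of the 7 genes, Csf1, was called higher in juveniles, against 11.3% of all tested genes, and none lower, against 6.42%. The libraries of Csf1 and Csf2 lay wholly above the neonatal ones, against 20.5% of tested genes, and those of Lta and Ltb wholly below, against 19.4%. After PBS none of the 7 was called, against 4.08% of tested genes in either direction (1.75% higher and 2.32% lower in juveniles). There Csf1 lay wholly above, against 10.2%, and Csf2 wholly below, against 9.82%, with Csf2 counted at most 3 times per library in both groups. None of the 7 differed between the ages in its response to E. coli by the adjusted p, against 7.0% of tested genes called in edgeR (5.05% with the larger and 1.94% with the smaller change in juveniles). At an unadjusted p under 0.05, Csf1 and Csf2, 2 of the 7, differed, against 22.2% of all tested genes, so the count is near the background.

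Receptor genes of the 7 cytokines were measured in the same libraries. The list also holds Csf2rb2, a related chain of the IL-3 receptor, which is among those that rose at both ages. Of 13 listed, 12 could be tested: in juveniles 8 rose, 1 fell and 3 were not called, and in neonates 2 rose and 10 were not called. These counts, and those of the lists below, stand beside 24.8% of all tested genes called in juveniles and 1.19% in neonates. The median log2 change of the 12 was 1.11 in juveniles and 0.15 in neonates, against −0.01 and 0.0 over all tested genes. Without both PBS libraries that stood apart, 7 were called in juveniles and 1 in neonates. With single libraries left out the calls ran over 6 to 8 in juveniles, and in neonates they fell to 0 without neonatal PBS 2 and to 1 without neonatal PBS 1 or neonatal E. coli 2. Ltbr, the receptor of the lymphotoxin complex and a gene of stromal and myeloid cells, was below the level needed for a test, with 12, 9, 10 and 3 counts summed over juvenile E. coli, juvenile PBS, neonatal E. coli and neonatal PBS.

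In juveniles 2 of the 3 chains of the IL-2 receptor rose. Il2ra (CD25), the high-affinity chain, averaged 684 ± 239 CPM in juvenile E. coli and 221 ± 32.6 CPM in juvenile PBS libraries, a rise of 1.63 ± 0.209 (adjusted p = 5.56e-05, edgeR). In neonates it averaged 225 ± 56.6 CPM after E. coli and 294 ± 16.7 CPM after PBS (−0.38 ± 0.206, adjusted p = 0.506), and the responses differed by 2.01 ± 0.292 (adjusted p = 0.00137). Il2rb, the signalling chain, followed it with 436 ± 79.8 and 190 ± 55.4 CPM in juveniles and 236 ± 38.9 and 246 ± 13.0 CPM in neonates, after E. coli and PBS in each age (difference of responses 1.26 ± 0.25, adjusted p = 0.00767). Il2rg, the chain shared with other cytokines, changed by 0.08 ± 0.088 in juveniles and 0.05 ± 0.0881 in neonates and was called in neither. The Il2 gene itself was called in neither age, as given above.

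Among TNF receptors, Tnfrsf1b averaged 376 ± 75.8 CPM in juvenile E. coli and 139 ± 11.9 CPM in juvenile PBS libraries, and 120 ± 29 and 115 ± 3.57 CPM in neonatal E. coli and neonatal PBS libraries. This receptor, abundant on activated and regulatory T cells, rose by 1.44 ± 0.159 in juveniles (adjusted p = 1.69e-05, edgeR), and its responses differed by 1.38 ± 0.225 (adjusted p = 0.00259). Tnfrsf1a, the broadly expressed death domain receptor, changed by 0.23 ± 0.144 in juveniles and 0.19 ± 0.144 in neonates (adjusted p = 0.267 and 0.675). Tnfrsf14, which also binds lymphotoxin alpha, was called in neither age.

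The beta chains Csf2rb2 and Csf2rb were the receptor genes called in neonates. Csf2rb2, the mouse-specific IL-3 chain closely related to the common beta chain, averaged 94.1 ± 20.7 CPM in juvenile E. coli and 19.9 ± 4.13 CPM in juvenile PBS libraries, a rise of 2.25 ± 0.179 (adjusted p = 1.09e-06, edgeR). In neonates it averaged 20.2 ± 1.21 CPM after E. coli and 8.85 ± 1.56 CPM after PBS, a rise of 1.19 ± 0.205 (adjusted p = 0.00705). Csf2rb, the common beta chain, rose by 1.79 ± 0.195 in juveniles (adjusted p = 1.47e-05) and by 1.14 ± 0.216 in neonates (adjusted p = 0.0146). Reads of this near-identical pair may have been split between them. Csf2ra, the ligand-binding chain of myeloid cells, averaged 7.92 ± 0.919 CPM in juvenile E. coli and 4.92 ± 0.648 CPM in juvenile PBS libraries (0.68 ± 0.239, adjusted p = 0.0487), a call made under 2 of 20 alternative settings.

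Csf1r, the M-CSF receptor and a defining gene of monocytes and macrophages, averaged 71.4 ± 27.5 CPM in juvenile E. coli and 32.8 ± 16.0 CPM in juvenile PBS libraries (1.11 ± 0.386, adjusted p = 0.0466, edgeR), and the groups overlapped. Its call was made under 8 of 20 alternative settings. Lifr averaged 42.0 ± 5.53 CPM in juvenile E. coli and 19.6 ± 0.736 CPM in juvenile PBS libraries, a rise of 1.1 ± 0.198 (adjusted p = 0.000892). In neonatal E. coli and neonatal PBS libraries it averaged 15.3 ± 2.52 and 10.9 ± 4.33 CPM and was not called. Il6st, which encodes gp130, the chain that LIFR pairs with, fell by 0.37 on the log2 scale (SE 0.0962, adjusted p = 0.0113) in juveniles and was not called in neonates. Dendritic cell markers summed to 192 to 266 CPM in juvenile E. coli and 85.4 to 108 CPM in juvenile PBS libraries, and to 58.0 to 73.0 and 43.9 to 60.3 CPM in neonatal E. coli and neonatal PBS libraries. Siglech alone averaged 175 ± 34.2 of 233 CPM in juvenile E. coli and 54.7 ± 8.22 of 95.6 CPM in juvenile PBS libraries. Zbtb46 and Cd209a had lower means in juvenile E. coli (11.2 and 5.29 CPM) than in juvenile PBS libraries (12.7 and 6.32 CPM). Of the 7 dendritic cell markers, 3 rose in juveniles and 0 were called in neonates. Neutrophil markers summed to 6.99 to 18.2 and 0.33 to 1.73 CPM in juveniles, and to 8.04 to 52.6 and 0.139 to 1.78 CPM in neonates, again after E. coli and PBS. The part of these cells in the receptor and CSF results was not tested.

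**Figure D4:**
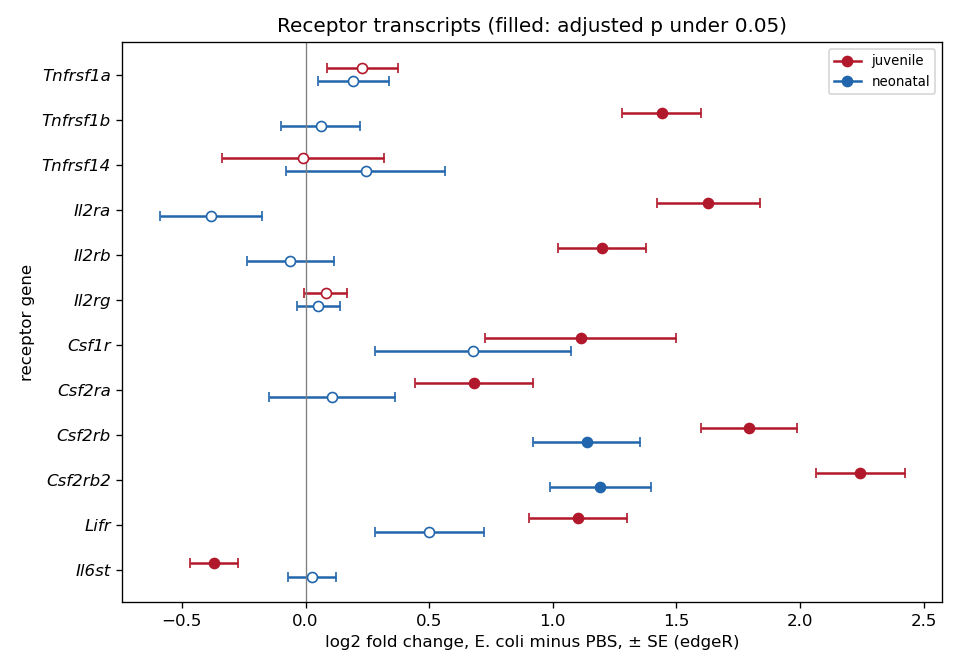
Log2 fold change ± SE (edgeR) of 12 receptor genes after E. coli relative to PBS in juveniles (red) and neonates (blue), filled where the adjusted p is under 0.05. Il2ra, Tnfrsf1b and Il2rb lie at 1.2 or more in juveniles and near or below 0.1 in neonates, whereas Csf2rb and Csf2rb2 are filled at both ages.

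**Figure D5:**
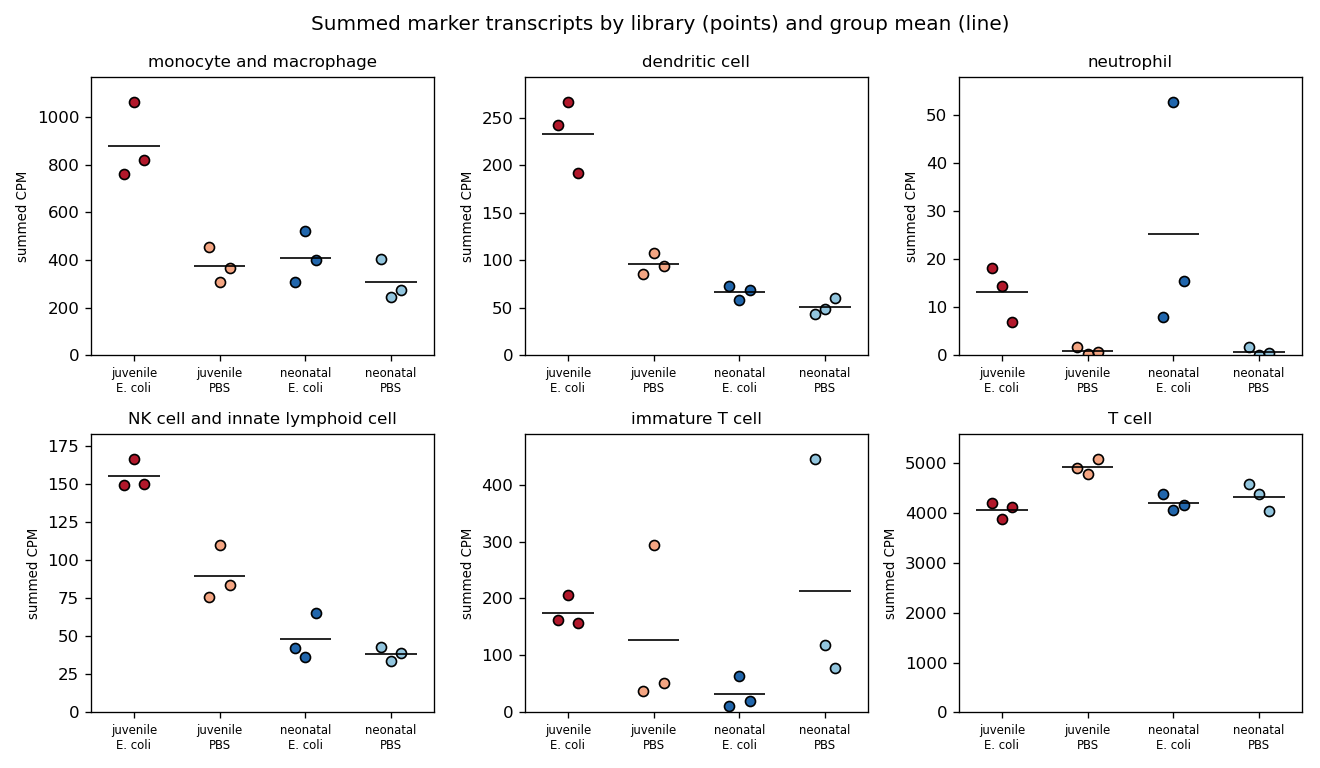
Summed CPM of the markers of 6 cell types in each library (points) with the group mean (line). Monocyte and macrophage sums reach 759 to 1060 CPM in juvenile E. coli libraries and at most 522 CPM in the others, and juvenile PBS 2 (294 CPM) and neonatal PBS 1 (444 CPM) have the highest immature T cell sums.

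Of 18 other cytokines that T cells make, 15 could be tested. Of these, 11 rose in juveniles and 4 were not called, and 2 rose in neonates and 13 were not called, with median log2 changes of 2.49 and 0.62. Il4, Il17a, Il17f and Il21, at most 1.14 CPM in any PBS library, reached the level for testing through E. coli libraries. Il3, Il9 and Csf3, with at most 1 count in any group, did not reach it. The counts of rises and the medians are thus not free of this selection. The genes of smallest p in juveniles were Ifng, Il22 and Il10. Ifng, the Th1 cytokine, averaged 42.4 ± 15.9 CPM in juvenile E. coli and 5.04 ± 1.4 CPM in juvenile PBS libraries, and 5.17 ± 1.3 and 3.68 ± 0.313 CPM in neonatal E. coli and neonatal PBS libraries (difference of responses 2.60 ± 0.442, adjusted p = 0.00318, edgeR). In neonates Il22 and Il17a, 2 cytokines of the Th17 class, were called, as Lif was. The neonatal call of Il17a was made under 15 of 19 alternative settings. Il17f and Il21 of the same list were not called in neonates. Il17f averaged 1.8 ± 0.749 CPM in neonatal E. coli and 0.494 ± 0.477 CPM in neonatal PBS libraries. For Il21 these means were 0.445 ± 0.173 and 0.633 ± 0.442 CPM. Il17a had 61 counts in the juvenile E. coli group and 32 in the neonatal E. coli group, against 0 in either PBS group. Natural killer cells and innate lymphoid cells also make Ifng, Il22, Il5 and Il13. Their summed markers were 149 to 166 CPM in juvenile E. coli and 75.6 to 110 CPM in juvenile PBS libraries, and 36.2 to 65.5 and 34.0 to 42.7 CPM in neonatal E. coli and neonatal PBS libraries. Il1rl1 alone averaged 118 ± 13.1 of 155 CPM in juvenile E. coli and 69.1 ± 13.1 of 89.7 CPM in juvenile PBS libraries. In neonatal E. coli and neonatal PBS libraries it averaged 20.35 ± 15.7 of 48.05 CPM and 15.9 ± 3.64 of 38.5 CPM. Eomes had a lower mean in juvenile E. coli (2.19 CPM) than in juvenile PBS libraries (2.73 CPM). Which cells made Il1rl1 was not tested. Of the 7 markers of this list 6 could be tested, 2 rose in juveniles and 0 were called in neonates, no marker was at 0 in a whole group, and their part in the cytokine results was not tested. Markers of CD8 and gamma-delta T cells summed to 83.3 to 111 CPM in juvenile E. coli and 38.9 to 101 CPM in juvenile PBS libraries. In neonatal E. coli and neonatal PBS libraries they summed to 34.0 to 41.6 and 42.8 to 138 CPM. The part of these cells in the cytokine results, Il17a among them, was not tested either.

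Regulators that act on such cytokine genes were counted too, again beside 24.8% of all tested genes called in juveniles and 1.19% in neonates. Of 18 transcription factors, with median log2 changes of 0.23 in juveniles and 0.24 in neonates, 7 rose and 2 fell in juveniles, with Prdm1, Rel and Fosl2 at the smallest p, and 1 (Jun) rose in neonates. Of 12 regulators of mRNA decay and translation, 4 rose and 1 fell in juveniles and 1 rose in neonates (medians 0.09 and 0.10). That gene was Zfp36, which encodes tristetraprolin, a protein that binds AU-rich elements. Its binding to the windows printed above was not measured. Zfp36 averaged 1163 ± 311 CPM in juvenile E. coli and 466 ± 150 CPM in juvenile PBS libraries, and 824 ± 64.0 and 353 ± 72.6 CPM in neonatal E. coli and neonatal PBS libraries. It rose by 1.32 ± 0.212 in juveniles (adjusted p = 0.00038, edgeR) and by 1.22 ± 0.213 in neonates (adjusted p = 0.0079), so the mRNA of this decay factor and that of Lif were both called at both ages. Its relative Zfp36l2 fell by 0.67 (SE 0.121) in juveniles (adjusted p = 0.000879).

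Genes that act downstream of the receptors were counted as well. Of 15 genes of TNF shedding and TNF receptor signalling, 8 rose in juveniles, among them Traf1, Birc3 and Ripk1, and 1 (Birc3) rose in neonates (medians 0.27 and 0.10). Of 12 genes of the IL-2 and STAT5 list, 5 rose and 2 fell in juveniles, and Socs3 and Cish rose in neonates (medians 0.61 and 0.24). Il2ra is in this list and in the receptor list. Without both PBS libraries that stood apart, the calls in juveniles numbered 11 for the cytokines, 9 for the transcription factors, 6 for the decay regulators, 8 for the TNF list and 7 for the IL-2 list, and in neonates 2, 2, 2, 0 and 3. Single libraries also moved these counts. The TNF list had 8 calls in juveniles, against 4 without juvenile E. coli 1 and 5 without juvenile E. coli 2, juvenile PBS 1, neonatal E. coli 1, neonatal E. coli 2 or neonatal PBS 3. Its 1 call in neonates was lost without juvenile E. coli 2, neonatal E. coli 1, 2 or 3, or neonatal PBS 1 or 3. The transcription factors had 1 call in neonates, against 4 without juvenile PBS 2 and 2 without juvenile E. coli 1, juvenile E. coli 3, juvenile PBS 3 or neonatal E. coli 3. The decay regulators had 1, against 0 without neonatal PBS 2 and 2 without juvenile PBS 2 or 3. The cytokines had 2, against 1 without neonatal E. coli 2 or neonatal PBS 1, 2 or 3. Socs3, a feedback inhibitor induced by STAT3, averaged 97.3 ± 15.6 CPM in juvenile E. coli and 17.9 ± 7.47 CPM in juvenile PBS libraries, and 100 ± 11.2 and 19.2 ± 4.42 CPM in neonatal E. coli and neonatal PBS libraries. Its responses of 2.44 ± 0.227 and 2.38 ± 0.225 were called at both ages (adjusted p = 3.46e-06 and 0.000222, edgeR).

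The genes most like each member over the 12 libraries were found from log2(CPM + 0.5) among 7966 genes of sufficient level. The points share 4 groups and the depth of each library, so these correlations are descriptions. For Lif they were Bcl3 (r = 0.947), Stat3 (0.941) and Socs3 (0.941), and for Csf2 Nfkbiz (0.959), Bhlhe40 (0.944) and Icam1 (0.94). For Csf1 they were Srpr (0.956), Gbp8 (0.954) and Fgr (0.949). Lta was nearest Mrps2 (0.862), Rangap1 (0.849) and Kat5 (0.845), Ltb nearest Ubr7 (0.914), Ubxn1 (0.909) and Arhgap1 (0.907), and Il2 nearest Mcfd2 (0.893), Ufc1 (0.891) and Mrpl13 (0.887). Bcl3 averaged 55.7 ± 9.66 CPM in juvenile E. coli and 11.2 ± 1.11 CPM in juvenile PBS libraries, and 48.7 ± 8.89 and 16.2 ± 3.2 CPM in neonatal E. coli and neonatal PBS libraries. Like Lif it was called at both ages (2.32 ± 0.182 and 1.59 ± 0.174, adjusted p = 9.48e-07 and 0.000263, edgeR).

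Genomic neighbours within 20 kb were counted as well. Osm, which encodes oncostatin M and lies 16531 bases from Lif, averaged 18.9 ± 1.61 CPM in juvenile E. coli and 7.17 ± 1.4 CPM in juvenile PBS libraries (1.40 ± 0.22, adjusted p = 0.000308, edgeR), and 12.2 ± 3.83 and 7.5 ± 0.3 CPM in neonatal E. coli and neonatal PBS libraries (not called). Il3, 15636 bases from Csf2, had 0 counts in all 12 libraries, which allows up to 3 counts in each. Around Ltb, Tnf and Lta, Lst1, 6000 bases from Ltb and 10942 from Tnf, rose in juveniles (2.17 ± 0.5, adjusted p = 0.00537), as did Aif1, a macrophage marker 18371 bases from Ltb (2.10 ± 0.3, adjusted p = 0.000139). Nfkbil1, 14824 bases from Lta and 18168 from Tnf, was too low to be tested, at 0.562 ± 0.313 CPM in juvenile E. coli and 0.731 ± 0.2 CPM in juvenile PBS libraries, and at 0.819 ± 0.427 and 0.747 ± 0.128 CPM in neonatal E. coli and neonatal PBS libraries.

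Promoters are shown for the genes that were called in juveniles with many counts, Lif, Csf1 and Tnf, as the 250 bases before the RefSeq start on GRCm38.p6. Capitals mark letters that match GGGNNNNNCC on either strand, the form of NF-kB sites, and overlapping matches run together.
Lif, chr11:4257318-4257567, plus strand: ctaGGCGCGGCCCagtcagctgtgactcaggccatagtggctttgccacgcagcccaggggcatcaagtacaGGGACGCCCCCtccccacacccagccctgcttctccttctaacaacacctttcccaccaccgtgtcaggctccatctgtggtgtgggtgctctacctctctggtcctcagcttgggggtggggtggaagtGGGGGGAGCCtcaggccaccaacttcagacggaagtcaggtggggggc
Csf1, chr3:107760470-107760719, minus strand: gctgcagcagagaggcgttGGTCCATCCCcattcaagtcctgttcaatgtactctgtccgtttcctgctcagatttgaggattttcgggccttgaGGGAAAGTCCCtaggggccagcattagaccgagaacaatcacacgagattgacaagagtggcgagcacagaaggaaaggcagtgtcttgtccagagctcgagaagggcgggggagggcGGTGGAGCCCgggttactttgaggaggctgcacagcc
Tnf, chr17:35202008-35202257, minus strand: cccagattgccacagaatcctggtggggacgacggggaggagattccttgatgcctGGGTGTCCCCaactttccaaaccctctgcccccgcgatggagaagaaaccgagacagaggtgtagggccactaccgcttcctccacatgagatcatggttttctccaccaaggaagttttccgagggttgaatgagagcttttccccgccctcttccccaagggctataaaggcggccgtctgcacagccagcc

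In the 300 bases searched, which add the 50 after the start, Csf1 held 5 such matches, Lif 4 and Tnf 2, and Ltb 4, Lta 2, Csf2 1 and Il2 1. Of 32851 promoters of the same length, 50.8% held at least 1, 6.65% at least 4 and 3.16% at least 5. The NFAT core GGAAA, searched on both strands, occurred 3 times in Tnf, Lta, Csf1 and Csf2, 2 times in Il2 and 1 time in Ltb and Lif, and 61.3% of promoters held it. The AP-1 form TGANTCA occurred in Lif alone of the 7, 1 time, and in 7.81% of promoters. In Csf1, Csf2 and Ltb 1 NFAT core overlaps a match of the first form. Such forms are common, and a match shows only that the letters are there. The RefSeq start of Csf2 lies 232 bases upstream of the start GENCODE gives, so its window differs from one placed at the GENCODE start.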

How the data were processed

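RNA-seq libraries of sorted lung CD4+ T cells were deposited by the authors as whole-number counts per gene symbol, not normalized. Per the labels, an amplification kit without strand marking was used for cDNA. Per the submitters' processing notes, CASAVA 1.8.4 and STAR were used with GRCm38 (mm10), and the deposited table's name gives SeqMonk as the counter. SeqMonk's version and settings are not stated in the labels or headers.

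The 12 columns were mapped to 4 groups of 3 pools by their titles. Counts of libraries within a group were not alike within counting error (chi-square divided by its degrees of freedom, 3.88 to 19.6), and nothing says whether pools were raised apart, so p-values measure the spread between these libraries. Genes were kept by edgeR's filterByExpr (minimum count 10, minimum total 15; 99.9% of counts), scaled by TMM and tested with edgeR 4.0.16 (R 4.3.3) quasi-likelihood F tests on the group means of all 12 libraries, with Benjamini-Hochberg adjustment and no covariate. The common biological coefficient of variation was 0.123. CPM use the total over tested genes and the TMM factor. All 7 genes passed the filter, so the exact permutation test planned for those that did not was not needed. The code was tested on simulated data. Intervals and floors cover counting error only unless called normal, which are from the fitted SE.

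Text names all 7 genes, their receptors, up to 3 genes of smallest p per list, the 3 genes most like each member, counted neighbours within 20 kb and marker sums. The members and lists were chosen with earlier results of these data known. Il22, Il17a, Zfp36l2, Cish, Socs3, Bcl3 and Jun are named where a count was small or a value was shown. Alternatives were DESeq2 1.42.0, voom in limma 3.58.1, RLE or upper-quartile scaling, no filter, the groups compared alone (not possible for a difference of responses), a replicate block, each library left out in turn, and both PBS libraries high in immature T cell markers left out. Gene positions, exon lengths and 3′ UTRs are from GENCODE M21 and promoters from RefSeq, in which all 7 symbols matched. The marker Ptcra did not match the counted symbols. The DNA methylation data named in the series title were not analysed here.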

Additional observations from a re-analysis of the deposited data

How the results depend on the processing

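Of 690 values of the 7 genes under the alternatives, 635 kept their direction and side of the threshold, 8 lost a call, 7 gained one and 40 changed sign, all of the last without a call in either form. The 8 lost calls are all Tnf in juveniles, which were lost as well with upper-quartile scaling (0.77, adjusted p = 0.0507), with the juvenile groups alone (0.82, adjusted p = 0.072) without both PBS libraries that stood apart (0.56, adjusted p = 0.0926), without juvenile E. coli 1 (0.87, adjusted p = 0.0702) and without neonatal PBS 3 (0.81, adjusted p = 0.0506). Among 2817 values of 142 calls of other named genes, 2496 remained called, 321 did not and 0 changed sign.

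Genes called in neonates numbered 132, against 238 with DESeq2 and 320 with the groups alone, and genes called between the ages after PBS 451, against 729 and 280. Members called between the ages after E. coli numbered 1, against 2 with limma voom and 2 with the groups alone, the second being Csf2. Upper-quartile scaling turned the juvenile split of 1705 higher and 1042 lower into 1468 higher and 1415 lower. With 1 library left out, genes called ran over 1656 to 3204 in juveniles, 55 to 238 in neonates, 368 to 1553 for the difference of responses, 1108 to 2637 between the ages after E. coli and 177 to 671 after PBS, and members called for the difference over 0 to 1. Counts moved by over 1.5 times in juveniles without juvenile E. coli 1 (1799) and 2 (1656), and in neonates without juvenile PBS 2 (238), neonatal E. coli 2 (62) and neonatal PBS 1 (56) and 2 (55). For the difference they did so without juvenile E. coli 1 (368), 2 (368) and 3 (1163), juvenile PBS 1 (504) and 2 (1553), neonatal E. coli 1 (372) and 2 (433) and neonatal PBS 1 (408) and 3 (450). Between the ages they did so after E. coli without juvenile E. coli 1 (1139) and 2 (1108) and neonatal E. coli 1 (1111) and 2 (1300), and after PBS without juvenile PBS 1 (243) and neonatal PBS 1 (177) and 2 (299).

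Uncalled values that changed sign without 1 library were, in juveniles, Lta (−0.04 to 0.2), in neonates Lta (−0.16 to 0.12), Ltb (−0.06 to 0.08), Il2 (−0.13 to 1.05) and Csf1 (−0.07 to 0.35), in the difference of responses Lta (−0.08 to 0.21), Il2 (−0.49 to 2.35) and Lif (−0.18 to 0.31), and between the ages after PBS Tnf (−0.29 to 0.15), Ltb (−0.19 to 0.18) and Il2 (−2.01 to 0.83). Without both PBS libraries that stood apart the neonatal Lta became 0.03 and Ltb −0.07, the difference of responses became −0.11 for Tnf and −0.01 for Lta, and Tnf between the ages after PBS became 0.34. The neonatal Lta became 0.01 with voom and 0.0 with no filter, and Il2 after PBS 0.01 with RLE, upper-quartile scaling and DESeq2 and 0.03 with no filter. The cause of these shifts was not tested.

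Same-numbered libraries did not deviate together (correlations −0.294 to 0.298, over 0.1 in 4 of 18 pairs, and 3 of 12 libraries were most like their own number), so the numbers are not taken as pairs. With the replicate block 2568, 106, 645, 1780 and 416 genes were called in the 5 comparisons, against 2747, 132, 774, 1964 and 451, and Tnf in juveniles had 0.82 (adjusted p = 0.0603). Depth limits Csf2 and Il2 most, at 3 counts or fewer in several PBS libraries.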
